A study of Drosophila melanogaster with 6 samples.

Results

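The genes described here are 6 RNA-binding regulators of muscle transcripts, mbl, bru1, bru3, Rbfox1, how and Fmr1. They were picked by symbol, and all 6 were among the 17807 genes of the deposited table and passed the filter on low values. The 3 test libraries carried Dmef2-Gal4 with UAS-madRNAi and the 3 control libraries carried Dmef2-Gal4 with UAS-mCherryRNAi, so the muscle driver and an active hairpin were common to both groups. Dmef2-Gal4 drives transgenes in muscle. Mad is a Smad transcription factor, activated by receptors for bone morphogenetic proteins (BMPs), and mCherry is a fluorescent protein that flies lack. RNA came from muscle-enriched lysates of the body wall of wandering third-instar Drosophila larvae, and per the series description a library pooled several larvae. Nothing in the labels says that the libraries of a group came from separate crosses, so the p-values measure the spread between these pools.

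Muscle cells splice, stabilise and translate the same primary transcripts differently from other cells, and a small set of conserved RNA-binding proteins sets these choices. Muscleblind (mbl) is a zinc-finger splicing factor needed for the final differentiation of larval muscle, and its human relatives are trapped by the repeat RNA of myotonic dystrophy. Bruno 1 (bru1) and Bruno 3 (bru3) are RNA-recognition-motif proteins of the CELF family, which act against muscleblind proteins on some vertebrate exons. Bruno 1 drives flight-muscle splicing in the fly and represses oskar translation in the oocyte. Rbfox1 is a splicing factor with 1 RNA-recognition motif. Held out wings (how) is a KH-domain protein of the STAR family that acts in muscle, tendon cells and glia. Fmr1 is the fly fragile X protein, a translational repressor at the neuromuscular junction.

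The deposited values were normalized gene counts, and the totals of the counts recovered from them ran from 96639921 to 127220949 counts. Mad itself was at 4348, 5643 and 5053 normalized counts in Mad knockdown replicates 1, 2 and 3, against 7533, 7658 and 7009.7 in the control knockdown libraries. That is 67.8% of control in lysates that also hold other tissues. The 8 larval muscle markers summed to between 902948 and 1388424 normalized counts in Mad knockdown and between 1970491 and 2975896 in control knockdown. The adult flight-muscle gene fln was at 0 in all 6 libraries. Germline markers were near 0, since their 7 genes together gave 32.2 to 40.8 normalized counts per Mad knockdown library and 33.7 to 41.5 per control library.

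The 6 regulators differed widely in level. Per kilobase of exon, taken over all annotated isoforms of a gene, how stood highest, at 12111 ± 1338 normalized counts per kb in Mad knockdown and 12469.9 ± 861 in control knockdown (SD, n = 3 each here and below). It exceeded 94.5% of the tested genes. Fmr1 came next, at 3813 ± 291 normalized counts per kb in Mad knockdown and 3629 ± 234 in control knockdown. Rbfox1 followed at 1479 ± 309 in Mad knockdown and 1215 ± 309 in control knockdown. These 3 genes lay above the median of the tested genes, which was 588 normalized counts per kb. The level of mbl was 399 ± 52.1 normalized counts per kb in Mad knockdown and 574 ± 16.3 in control knockdown. Both Bruno genes were low. The level of bru3 was 26.0 ± 2.66 normalized counts per kb in Mad knockdown and 30.1 ± 5.12 in control knockdown. The lowest was bru1, at 11.5 ± 4.62 in Mad knockdown and 10.3 ± 1.49 in control knockdown, and 5.89% of the tested genes lay below it. No neighbours in this order overlapped over the 6 libraries, and the widest step was the 17.4-fold one between mbl and bru3. The steps depend on the exon length used, which was 15094 bases for mbl and 8305 for Rbfox1. Undivided by length these 2 genes overlapped, with Rbfox1 at 7193 and mbl at 8392 normalized counts in control knockdown replicate 3.

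**Figure D1:**
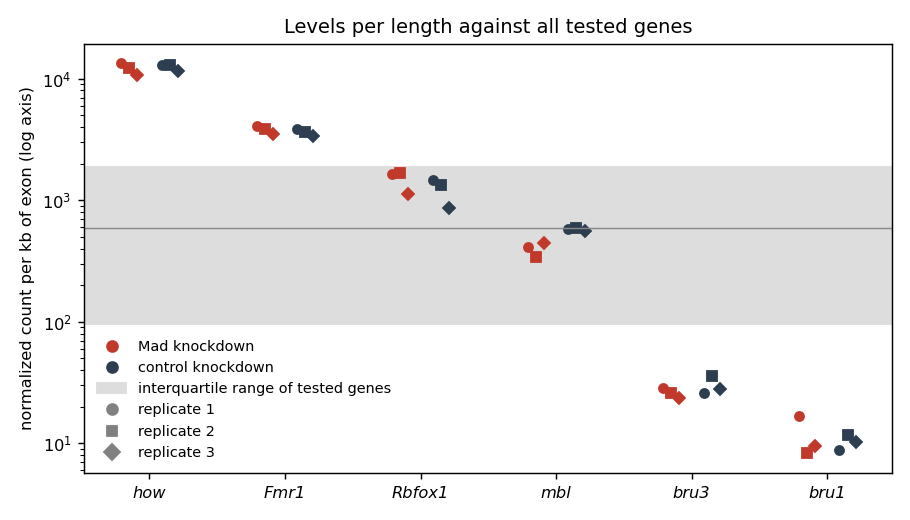
Normalized counts per kb of exon for the 6 regulators in each library, on a log axis, with Mad knockdown left of control knockdown and the interquartile range of all tested genes shaded. The order from how to bru1 was the same in each of the 6 libraries, and bru3 and bru1 lay below the shaded range.

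Whether Mad knockdown changed these levels was asked with limma on log2(normalized count + 1) over 10348 genes, a scale that understates the change of low genes. None of the 6 regulators passed the Benjamini-Hochberg adjusted threshold of 0.05, which 2.59% of all tested genes passed. At an unadjusted p under 0.05 there was 1 regulator, mbl, against 19% of all tested genes, so that 1 of 6 is near the background. On the recovered counts edgeR called 0 of the 6 and DESeq2 called 1, again mbl, where they called 2.44% and 9.66% of all tested genes. The median log2 fold change of the 6 was 0.01, beside 0.01 over all tested genes.

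The nearest to a call was mbl (FBgn0265487, chromosome 2R, 17216549 to 17379376, plus strand). It was at 6224, 5159.8 and 6694 normalized counts in Mad knockdown replicates 1, 2 and 3, against 8754, 8859.8 and 8392 in control knockdown replicates 1, 2 and 3. All 3 Mad knockdown libraries lay below the lowest control library, a separation in that direction that 13% of the tested genes showed. The means were 6026 ± 786 in Mad knockdown and 8668 ± 246 in control knockdown, which is 69.5% of control. In limma the log2 fold change was -0.53 (SE 0.101, 95% interval -0.77 to -0.29, adjusted p = 0.0507), so mbl stood just outside the threshold. By p-value it ranked 269 in a table where 268 genes were called. Its control libraries varied little, as the coefficient of variation was 13.0% in Mad knockdown and 2.83% in control knockdown. A change at least as large in either direction was seen in 16.4% of the tested genes. Permuting the 6 normalized counts exactly, two-sided, gave p = 0.1, and 3 libraries against 3 allow no smaller p.

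The side of the threshold on which mbl lay depended on the fit. Of 18 alternative fits, 5 put it past the threshold, with adjusted p-values of 2.8e-04 in DESeq2, 0.0399 in limma with robust fitting, 0.0495 in limma with a pseudocount of 5, 0.04965 in limma after TMM scaling and 0.04997 in limma without Mad knockdown replicate 3. The direction was the same in all 18, and the log2 fold change ran from -0.61 to -0.42. In the 5 other fits that left out 1 library the adjusted p in limma ran from 0.0557 to 0.151.

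The summed markers of muscle and haemocytes stood apart between the groups, as mbl did. Those of neurons did so only with the gene Rbp9 included, and those of the other tissues listed overlapped. Of the 8 larval muscle markers, 7 had a log2 fold change below 0 (median of all 8, -0.93), and 1, the tropomyosin gene Tm2, was called by limma. At an unadjusted p under 0.05 all of these 7 were lower (19% of all tested genes passed it in either direction), and DESeq2 called 6 (9.66% of all tested genes) and edgeR 0. The exception was Mef2, the transcription factor whose promoter gives the driver its name, at 53188 ± 6439 normalized counts in Mad knockdown and 48489 ± 6728 in control knockdown. Neuronal markers summed to between 27935 and 31579.8 normalized counts in Mad knockdown and to between 31659 and 36577 in control knockdown, a narrow separation. Much of this sum was Rbp9, at 16432 ± 1645 in Mad knockdown and 20243 ± 2833 in control knockdown. Without Rbp9 the sum of the other neuronal markers overlapped between the groups. The neuronal markers tested had a median log2 fold change of -0.05, with 3 above 0 and 5 below. Haemocyte markers summed to between 175454 and 203616 in Mad knockdown and to between 215919 and 281491 in control knockdown. Their median was -0.23, with 2 above 0 and 6 below. Fat body markers summed to between 21845 and 42288 in Mad knockdown and to between 26534 and 42024 in control knockdown, and tracheal markers to between 30383 and 66865 in Mad knockdown and to between 56756 and 100402 in control knockdown, both with overlap. Of the 5 tracheal markers, 2 stood apart downwards, verm and serp, at log2 fold changes of -1.41 and -1.22, and 2 upwards. Among all tested genes 13% stood apart downwards and 11.6% upwards. No tracheal marker was called by limma. None of the 8 neuronal and 8 haemocyte markers tested was called by limma or edgeR. At an unadjusted p under 0.05 limma had 2 neuronal and 4 haemocyte markers, all lower, and DESeq2 called 1 and 3. The part of these tissues in the values of mbl was not tested, and in such lysates fewer cells of a type and less RNA per cell cannot be told apart.

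The Bruno genes gave no detectable change. For bru1 (FBgn0000114, chromosome 2L, 12175004 to 12313438, plus strand) the values were 131, 64.4 and 73.5 normalized counts in Mad knockdown replicates 1, 2 and 3, against 68.3, 91.5 and 80.2 in control knockdown replicates 1, 2 and 3. Mad knockdown replicate 1 was the highest of the 6, replicate 2 lay below all controls and replicate 3 within their range. The log2 fold change was 0.10 (95% interval -0.62 to 0.82, adjusted p = 0.905 in limma), and it became -0.21 without Mad knockdown replicate 1 and -0.01 without control knockdown replicate 1. These values rest on 71 to 140 recovered counts per Mad knockdown library and 56 to 88 per control library, so counting error adds to the spread.

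The gene bru3 (FBgn0264001, chromosome 3L, 13521907 to 13803400, minus strand) had 368, 331 and 300.1 normalized counts in Mad knockdown replicates 1, 2 and 3, against 336, 459.7 and 361 in control knockdown replicates 1, 2 and 3. The groups overlapped, and control replicate 2 was the highest library. Its log2 fold change was -0.20 (95% interval -0.57 to 0.16, adjusted p = 0.545 in limma), and -0.07 without control knockdown replicate 2. The third CELF gene, bru2, averaged 4566 ± 685 normalized counts in Mad knockdown and 5001 ± 210 in control knockdown (log2 fold change -0.14, adjusted p = 0.575 in limma).

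Rbfox1 (FBgn0052062, chromosome 3L, 10481412 to 10594012, plus strand) varied most within groups among the 4 more abundant regulators. It was at 13648, 13882 and 9330.4 normalized counts in Mad knockdown replicates 1, 2 and 3, against 12083, 11001 and 7193 in control knockdown replicates 1, 2 and 3. Replicate 3 was the lowest library in each group, and the groups overlapped. The log2 fold change was 0.30 (95% interval -0.27 to 0.86, adjusted p = 0.566 in limma). It ranged from 0.07 without control knockdown replicate 3 to 0.48 without Mad knockdown replicate 3.

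The most abundant regulators, how and Fmr1, had the narrowest intervals of the 5 whose interval included 0. For how (FBgn0264491, chromosome 3R, 22042191 to 22079321, plus strand) the values were 67862, 62574 and 54359.9 normalized counts in Mad knockdown replicates 1, 2 and 3, against 65763, 66134 and 58368 in control knockdown replicates 1, 2 and 3. The groups overlapped throughout, and the log2 fold change was -0.05 (95% interval -0.30 to 0.20, adjusted p = 0.867 in limma), turning to 0.04 without Mad knockdown replicate 3. Tendon-cell and glial markers, for other cells that use how, summed to overlapping ranges in the groups. The tendon markers gave 11235 to 18026 normalized counts in Mad knockdown and 15725 to 21042 in control knockdown, and the glial markers 33721 to 79928 in Mad knockdown and 32869 to 35958 in control knockdown. All 4 tendon markers had a log2 fold change below 0 (median -0.43), and Lrt stood apart downwards, as 13% of all tested genes did. The overlap of the tendon sum came from the variable gene slow, at 5279 ± 3585 normalized counts in Mad knockdown and 7641 ± 3301 in control knockdown. Without slow, the sum of the other tendon markers stood apart downwards. Most of the glial sum, and of its range in Mad knockdown, was the gene Gs2. It was at 47608 ± 23369 normalized counts in Mad knockdown and 27409 ± 1968 in control knockdown. Of the 5 glial markers, 4 were above 0 (median 0.25), and moody stood apart upwards, as 11.6% of all tested genes did. None of these markers was called by limma, and DESeq2 called Lrt, where it called 9.66% of all tested genes.

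Fmr1 (FBgn0028734, chromosome 3R, 10101420 to 10110121, minus strand) was at 19987, 18947 and 17162 normalized counts in Mad knockdown replicates 1, 2 and 3, against 18943, 17794 and 16648 in control knockdown replicates 1, 2 and 3. Its groups overlapped, with a log2 fold change of 0.07 (95% interval -0.12 to 0.27, adjusted p = 0.705 in limma). As for Rbfox1 and how, the lowest library of each group was replicate 3. The interval leaves room for changes of -0.12 to 0.27 on the log2 scale, so an equal level was not shown.

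**Figure D2:**
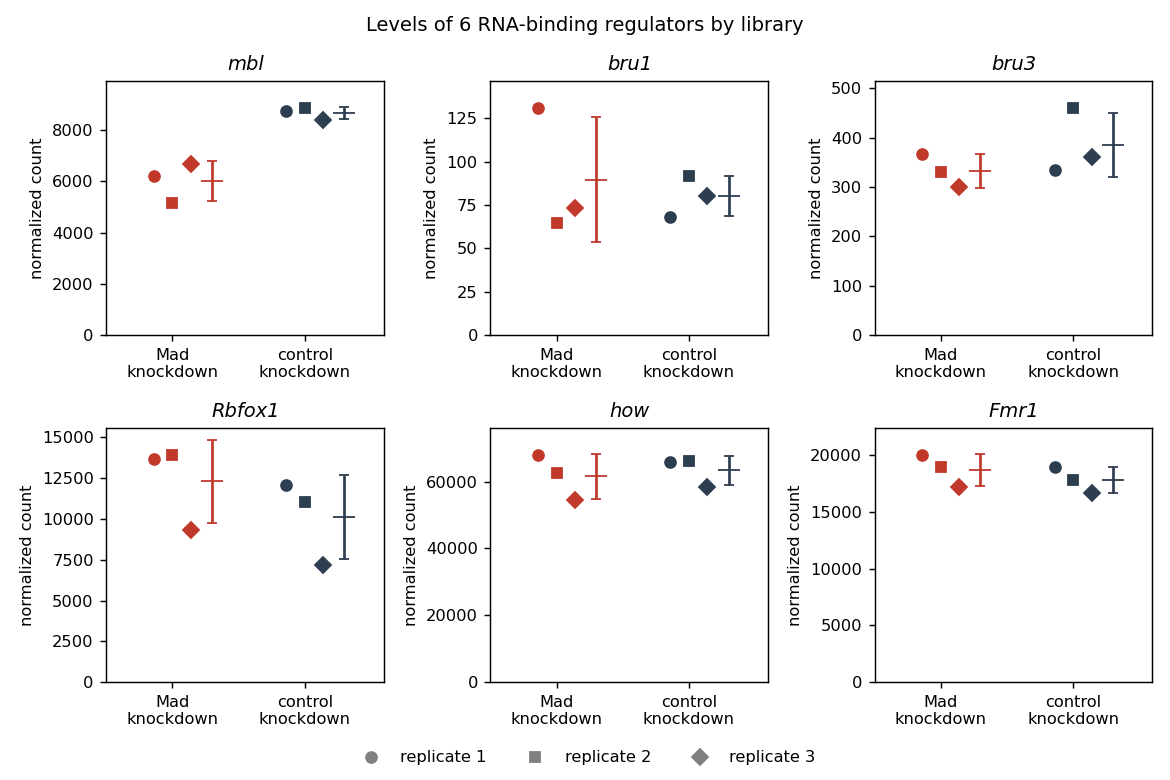
Normalized counts of the 6 regulators in each library, Mad knockdown left of control knockdown, from 0, with symbols for replicates and a bar for the mean ± SD of 3 libraries. Only for mbl do the groups stand apart, with the highest Mad knockdown library at 6694 and the lowest control library at 8392.

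**Figure D3:**
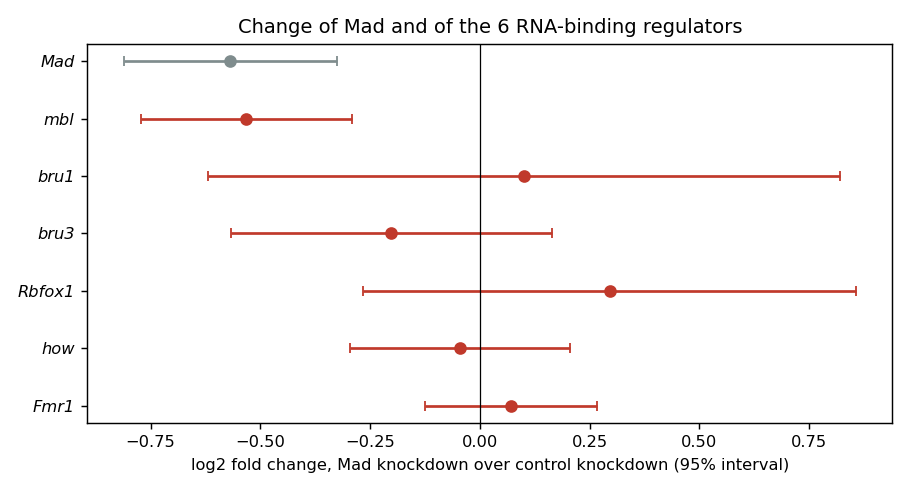
Log2 fold change of Mad knockdown over control knockdown with its 95% interval from limma, for Mad and the 6 regulators. The interval of mbl, from -0.77 to -0.29, lies below 0, and those of the other 5 regulators include 0.

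The balance between regulators was then taken within each library, which removes the scaling, and the difference between groups does not depend on gene length. The log2 ratio of mbl to bru1 was 5.56, 6.30 and 6.49 in Mad knockdown replicates 1, 2 and 3, against 6.98, 6.58 and 6.69 in control knockdown replicates 1, 2 and 3. All 3 Mad knockdown ratios lay below the controls, by -0.63 on average, and by -0.35 without Mad knockdown replicate 1, the library in which bru1 was high. An exact two-sided permutation test gave p = 0.1, and 0.3 after Benjamini-Hochberg adjustment over 3 ratios. The log2 ratio of mbl to bru3 was 4.17 ± 0.271 in Mad knockdown and 4.50 ± 0.22 in control knockdown. These groups overlapped (exact permutation p = 0.2, adjusted 0.3). For Rbfox1 to bru1 the log2 ratio was 7.13 ± 0.537 in Mad knockdown and 6.94 ± 0.49 in control knockdown, also with overlap (exact permutation p = 0.6, adjusted 0.6). None of the 3 ratios could pass the threshold with 3 libraries against 3.

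**Figure D4:**
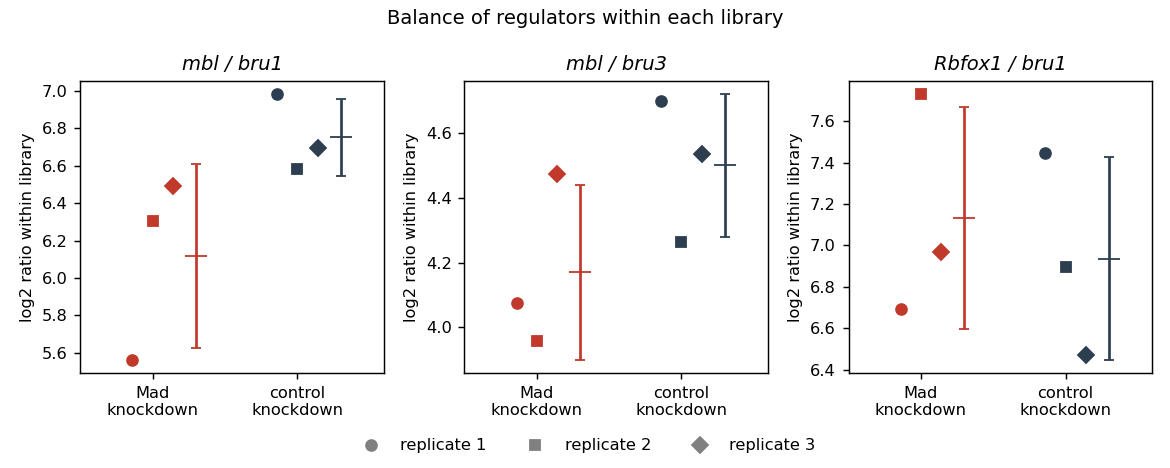
Log2 ratio of normalized counts of mbl to bru1, mbl to bru3 and Rbfox1 to bru1 within each library, Mad knockdown left of control knockdown, with the mean ± SD of 3 libraries. The mbl to bru1 ratios reach 6.49 at most in Mad knockdown and start at 6.58 in control knockdown, and the other 2 ratios overlap.

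All but 2 of the regulators, how and Fmr1, are long genes with very long introns, and the annotation of dm6 coordinates showed what lies around them. The spans of mbl, bru1, bru3 and Rbfox1 ran from 112601 to 281494 bases, where the median tested gene spanned 2703, and how and Fmr1 spanned 37131 and 8702 bases. The longest intron was 144855 bases, in bru3, and 1316 bases in Fmr1. The annotated isoforms numbered 19 for mbl, 18 for bru3, 11 for bru1, 11 for Fmr1, 9 for Rbfox1 and 6 for how, and gene counts do not tell them apart. No exon base of the 6 genes was shared with another annotated gene, although 10 genes lie nested within mbl, 7 within bru3, 5 within bru1 and 3 within Rbfox1. None of the 10 genes within mbl passed the filter on low values. Within 100 kb of mbl, 30 other genes were tested, with a median log2 fold change of -0.01. Of these 2 were called, CG43103 at -1.13 (adjusted p = 0.0204 in limma) and the receptor-like gene mthl3 at 0.65 (adjusted p = 0.0142 in limma), so the calls around mbl went both ways. Over all tested genes limma called 2.59%. Around bru1 1 of 20 tested genes was called, CG17217, at 6.00 ± 0.373 normalized counts in Mad knockdown and 40.0 ± 12.5 in control knockdown (adjusted p = 0.0303 in limma). Among the 78 tested genes that span at least 100 kb, 1 was called (1.28%), the cell-surface gene DIP-lambda, at 35.5 ± 8.56 normalized counts in Mad knockdown and 0, 0 and 3.65 in control knockdown replicates 1, 2 and 3. CG17217 and DIP-lambda had values near the floor. Each passed the filter on low values only through the group where it was higher, so these calls are not independent of the filter.

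Genes with the pattern most like each regulator over the 6 libraries were taken by the root-mean-square difference of centred log2 values. For mbl these were CRMP, at a difference of 0.0369, and CG42233, at 0.0592. CRMP averaged 3317 ± 366 normalized counts in Mad knockdown and 4664 ± 5.17 in control knockdown and was called (log2 fold change -0.50, adjusted p = 0.0423 in limma). For bru3 the nearest was sals, a gene for a sarcomere-length regulator, at 0.0134, and then CG10365, at 0.0394. For how they were CG31140, at 0.00957, and the NF-kB gene Rel, at 0.0225. For Fmr1 they were Epg5 and amx, both at 0.0154. For Rbfox1 they were CG30345 and CG33181, at 0.0784 and 0.0920. For bru1 they were h and Gbp3, at 0.0949 and 0.111. Of these 12 genes, CRMP alone was called by limma. They were picked for following a regulator over the same 6 libraries, so their calls are no separate evidence.

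The wider splicing and RNA-control machinery was examined with 6 lists holding 79 tested genes: paralogs of the regulators, SR proteins, hnRNP proteins, the core spliceosome, the exon junction complex with nonsense-mediated decay, and Fmr1 partners with translational repressors. Neither limma nor edgeR called any of the 79, and DESeq2 called 2, heph and Upf3. Over all tested genes limma called 2.59%, edgeR 2.44% and DESeq2 9.66%. At an unadjusted p under 0.05 in limma there were 10 (12.7%, against 19% of all tested genes), 7 higher and 3 lower. The median log2 fold change was 0.02.

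The hnRNP gene heph, the fly polypyrimidine-tract-binding protein, had the lowest adjusted p of the 79. It was at 53784, 52082 and 49968 normalized counts in Mad knockdown replicates 1, 2 and 3, against 43229.6, 43708 and 42392 in control knockdown replicates 1, 2 and 3. The groups stood apart upwards, as they did in 11.6% of all tested genes. The log2 fold change of heph was 0.27 (SE 0.0627, adjusted p = 0.0807 in limma). The other hnRNP genes nearest the threshold were glo, at 24115 ± 1837 normalized counts in Mad knockdown and 20282 ± 895 in control knockdown, and ps, the fly NOVA gene, at 13819 ± 1627 in Mad knockdown and 16395 ± 782 in control knockdown. The medians of the 12 hnRNP genes and of all tested genes were 0.03 and 0.01 on the log2 scale.

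Among 8 genes of the exon junction complex and nonsense-mediated decay, 7 had a log2 fold change above 0, with a median of 0.08. Upf3, a factor of nonsense-mediated decay, averaged 1304 ± 77.8 normalized counts in Mad knockdown and 972 ± 108 in control knockdown (log2 fold change 0.43, adjusted p = 0.0847 in limma). Upf2, its partner, averaged 3928 ± 174 in Mad knockdown and 3520.04 ± 124 in control knockdown, and the exon junction gene mago averaged 2146 ± 36.1 in Mad knockdown and 1963 ± 128 in control knockdown. The groups stood apart upwards in 3 of the 8 genes, where 11.6% of all tested genes did, and these are the 3 named for their low p.

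The 24 core spliceosome genes had log2 fold changes from -0.11 to 0.30, and the lowest p-values belonged to Phf5a, Sf3b1 and U2af38. Phf5a, a subunit of the U2 particle, averaged 701 ± 44.9 normalized counts in Mad knockdown and 568 ± 35.9 in control knockdown (adjusted p = 0.152 in limma). Of 14 SR proteins and their regulators, tra, the female splicing factor of sex determination, averaged 588 ± 63.8 in Mad knockdown and 787 ± 92.6 in control knockdown (log2 fold change -0.42, adjusted p = 0.146 in limma). The others nearest the threshold were Pnn and SC35, at log2 fold changes of -0.25 and 0.13. Among the 6 paralogs tested, the STAR gene qkr58E-2 averaged 3412 ± 40.1 in Mad knockdown and 3641 ± 36.1 in control knockdown, at a log2 fold change of -0.09 (adjusted p = 0.39 in limma). Its groups stood apart downwards, as they did in 13% of all tested genes. Of 15 Fmr1 partners and translational repressors, the Pumilio gene pum had the lowest p, at 39992 ± 5922 in Mad knockdown and 29695 ± 5145 in control knockdown (log2 fold change 0.43, adjusted p = 0.214 in limma), with overlap.

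Transcripts reported as targets of these proteins were taken last, at gene level only. The 6 Fmr1 targets had log2 fold changes from -0.06 to 0.18, and the microtubule-associated protein gene futsch averaged 667 ± 29.7 normalized counts in Mad knockdown and 589.8 ± 73.2 in control knockdown. None of the 6 was called by limma, edgeR or DESeq2, and none had an unadjusted p under 0.05. The 13 targets of how, Rbfox1, bru1 and mbl had a median log2 fold change of -0.37, with 10 below 0. None was called by limma or edgeR, 7 had an unadjusted p under 0.05, where 19% of all tested genes did, and DESeq2 called 5, where it called 9.66% of all tested genes. The larval muscle markers, 3 of which (Mhc, sls and Mef2) are also among these targets, had a median of -0.93 on the same scale, and the part of muscle content in these values was not tested. The troponin I gene wupA averaged 163363 ± 17090.2 normalized counts in Mad knockdown and 249290.3 ± 18404 in control knockdown (log2 fold change -0.61, adjusted p = 0.0537 in limma). The Z-disc genes Zasp52 and Actn had log2 fold changes of -0.49 and -0.67. The how target sr, a transcription factor of tendon cells, averaged 2085 ± 319 in Mad knockdown and 2321 ± 101 in control knockdown.

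Of 17 tested sarcomere genes with regulated splicing, limma called 2, both lower, against 2.59% of all tested genes, and 15 had a log2 fold change below 0, with a median of -0.61. At an unadjusted p under 0.05 in limma there were 14, all lower, where 19% of all tested genes passed in either direction. DESeq2 called 10 and edgeR 1, where they called 9.66% and 2.44% of all tested genes. Prm, the paramyosin gene of thick filaments, fell to 218390 ± 25408 normalized counts in Mad knockdown, against 384919 ± 16181 in control knockdown (log2 fold change -0.82, adjusted p = 0.0288 in limma). Tm2 fell to 109356 ± 21949 in Mad knockdown, against 200656 ± 16279 in control knockdown (log2 fold change -0.89, adjusted p = 0.0456 in limma and 0.051 in edgeR). Without 1 library the call of Prm was lost in each of the 6 fits, where its adjusted p in limma ran from 0.0591 to 0.11, and that of Tm2 in each but the fit without Mad knockdown replicate 3. These genes overlap the muscle markers given above, and the part of muscle content in their values was not tested. They also overlap the reported targets above, with wupA in both lists, so the counts of these lists are not separate observations.

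**Figure D5:**
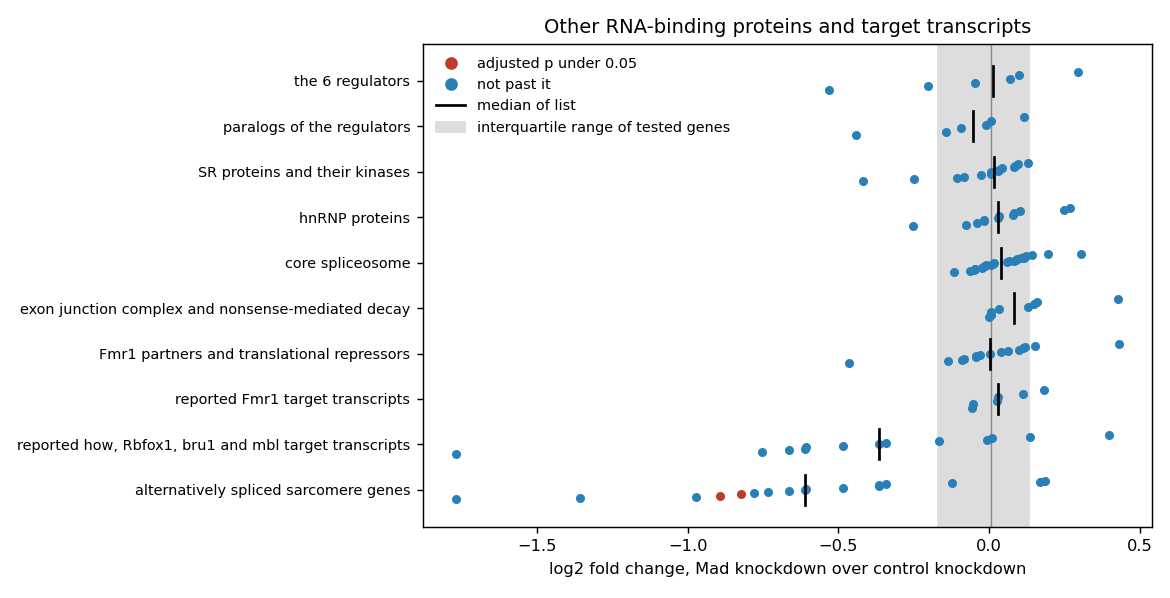
Log2 fold change of each tested gene in the lists of RNA-binding proteins and target transcripts, Mad knockdown over control knockdown, with the list medians as black lines and the interquartile range of all tested genes shaded. The 6 lists of RNA-binding proteins have medians from -0.05 to 0.08, and the sarcomere list has a median of -0.61 with its 2 called genes in red.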

How the data were processed

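The authors deposited 1 table of normalized gene counts, a signal per gene and library, for 3 Mad knockdown and 3 control knockdown libraries. RNA was Trizol-extracted and poly-A selected, per the labels' protocols, and the build was dm6, per the submitters' processing notes. The aligner, counter, annotation and strand setting are not given in the sources used here. Within a library, 100% of the nonzero values were whole multiples of the smallest one (tolerance 0.001), so gene counts were recovered by dividing by it. Gene positions came from Ensembl on dm6 coordinates, where 97 identifiers were not matched.

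Genes with at least 10 normalized counts in at least 3 libraries were tested on log2(value + 1) with limma 3.58.1 in R 4.3.3 (eBayes with a trend, no covariate), adjusted over 10348 genes. edgeR 4.0.16 and DESeq2 1.42.0 were run on recovered counts. Other pseudocounts, filters, scalings, variance settings, a replicate block and leaving out each library were tried. The scripts were tested on simulated data. The named genes were Mad, the 6 regulators, and per list the called genes and the 3 with the lowest p, plus the 2 nearest patterns per regulator; bru2, Mef2, fln and called genes near or as long as the regulators were named after their values were seen. The regulators and lists were chosen with earlier results of these data known. The names kep1, bl, Sf1, SmG, eIF4A3, Smg1 and Sra-1 were not matched.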

Additional observations from a re-analysis of the deposited data

How the results depend on the processing

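The direction of mbl, bru3, Rbfox1 and Fmr1 held in all 18 alternative fits, and counting error weighs most on bru1, at 56 to 140 recovered counts per library. The count of regulators called moved from 0 to 1 in limma with a pseudocount of 5, TMM scaling and robust fitting, and in DESeq2, each time for mbl, at log2 fold changes of -0.53, -0.52, -0.53 and -0.52 and adjusted p-values of 0.0495, 0.04965, 0.0399 and 2.8e-04. Across the 6 leave-one-out fits it was 0 to 1. There the log2 fold change ran from -0.61 to -0.42 for mbl, from -0.21 to 0.30 for bru1, from -0.12 to 0.0415 for how and from -0.66 to -0.47 for Mad, and the log2 ratio of Rbfox1 to bru1 differed by -0.10 to 0.45. Mad lost its call in limma without a trend (-0.57, adjusted p 0.0981), in edgeR (-0.55, 0.0516), with a replicate block (-0.57, 0.0787) and in 5 of the 6 leave-one-out fits (0.0745 to 0.143). It kept its call in 10 of the 18 alternatives. The genes called numbered 268 in the report, 138 without a trend, 117 with a replicate block, 1000 in DESeq2, 49 at an adjusted p under 0.01, and from 43 to 193 without 1 library. Same-numbered libraries of the groups had deviations correlated at -0.14, -0.066 and 0.037, so the numbers were not taken as pairs. With the block, Rbfox1 stayed uncalled (adjusted p 0.137), no regulator was called, and Prm (0.0728) and Tm2 (0.0607) lost their calls, Tm2 also without a trend (0.09). Fits with 5 libraries have fewer degrees of freedom by construction; for the rest the cause was not tested.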
